A study of Caenorhabditis elegans with 2 samples.

Results

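The genes described here are the 129 genes of the small nuclear RNA (snRNA) biotype in the Ensembl annotation of the Caenorhabditis elegans genome WBcel235, out of 46890 annotated genes on the 6 chromosomes. They comprise 30 spliced-leader genes, whose names begin with sls-, and 99 other snRNA genes. For each gene, the strongest region of every deposited list with its summit within 500 bp of the gene was taken. Membership rests on the annotation alone, and 1 record, mir-1831, is a 22-base annotation inside another member, sup-39. The regions came from chromatin immunoprecipitation followed by sequencing (ChIP-seq) with an antibody to green fluorescent protein. There are 2 libraries, numbered as biological replicates, in 1 group, and no conditions were compared. Both were made from whole young adults of 78 h and mixed sex, grown from larvae arrested at the L1 stage by starvation after bleaching. The worms were strain OP208, with genotype unc-119(ed3) III; wgIs208, which carries an integrated transgene for a fusion of the nuclear hormone receptor NHR-27 to eGFP. The labels conflict, since a note on the strain names NHR-270 with a C-terminal GFP-FLAG tag. The promoter that drives the fusion is not given in the sources used here, and an immunoprecipitation from worms without the fusion was not analysed here.

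Small nuclear RNAs are the RNA parts of the spliceosome, which removes introns from pre-mRNA. Nematodes also join a short leader, cut from a spliced-leader RNA, to the 5′ ends of many mRNAs by trans-splicing. The sls-1 genes encode SL1 RNA, the source of the leader on most trans-spliced mRNAs, and the sls-2 genes encode SL2 RNA and its variants, whose leader goes mainly to downstream genes of operons. The smy genes encode SmY RNAs, nematode snRNAs associated with trans-splicing, and sup-6 and sup-39 are U1 snRNA genes found through suppressors of splice-site mutations. Animal snRNA genes are short, exist in several near-identical copies and have a proximal sequence element in their promoter, which the snRNA-activating protein complex binds.

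The spliced-leader genes are shown first, because the sls-1 and sls-2 genes differed most in the region lists. Sequences are from the RefSeq genome of WBcel235, 5′ to 3′ on the gene's strand, and capitals mark the leader, read as the stretch from GGTTT to the first AG directly followed by GT.
sls-1.10, chrV:17120694-17120791, minus strand: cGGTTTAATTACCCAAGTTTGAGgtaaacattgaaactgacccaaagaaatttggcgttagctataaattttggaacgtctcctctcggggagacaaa
sls-2.1, chrII:5844865-5844974, plus strand: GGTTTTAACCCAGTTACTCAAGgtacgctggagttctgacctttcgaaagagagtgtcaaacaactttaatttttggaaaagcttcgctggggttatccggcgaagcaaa
sls-2.15, chrIII:11091010-11091121, plus strand: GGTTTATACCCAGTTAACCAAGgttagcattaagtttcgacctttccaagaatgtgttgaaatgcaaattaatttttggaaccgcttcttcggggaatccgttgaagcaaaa
sls-2.10, chrIV:9130721-9130829, minus strand: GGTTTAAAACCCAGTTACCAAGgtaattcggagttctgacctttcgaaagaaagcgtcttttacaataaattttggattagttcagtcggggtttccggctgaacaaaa
Identity is given here as a global alignment score, matched bases less penalties for inner gaps, over the length of the longer gene. By this score sls-2.1 and sls-1.10 had 47.3% identity, while sls-2.1 and sls-2.15 had 69.2%. All 18 sls-2 genes held such a leader, in 11 distinct sequences of 21 to 23 bases. Of the 12 sls-1 genes, 10 held the same leader, and those 10 were identical over all 98 bases. The other 2 sls-1 genes are shorter records of 68 bases, also identical to each other, that lack this leader.

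Many but not all of the snRNA genes hold a like word at a like place upstream (75 of 129, described after the sequences), and the 100 bases before the annotated 5′ end are shown for 7 genes with a thresholded region (defined below), for sls-2.2 as one that differs, and for sls-2.10 as one with no thresholded region. Capitals mark AACCCG anywhere and TGTCNG (N is any base) where it starts 65 to 36 bases upstream.
sls-2.1, chrII:5844765-5844864, plus strand: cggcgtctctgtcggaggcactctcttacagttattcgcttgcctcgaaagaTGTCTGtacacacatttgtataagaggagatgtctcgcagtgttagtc
sls-2.15, chrIII:11090910-11091009, plus strand: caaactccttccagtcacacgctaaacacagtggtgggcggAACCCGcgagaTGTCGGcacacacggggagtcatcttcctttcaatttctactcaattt
sls-2.8, chrIII:12250365-12250464, plus strand: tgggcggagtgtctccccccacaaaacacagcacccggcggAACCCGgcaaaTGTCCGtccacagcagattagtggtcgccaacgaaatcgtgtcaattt
sup-39, chrII:6968559-6968658, minus strand: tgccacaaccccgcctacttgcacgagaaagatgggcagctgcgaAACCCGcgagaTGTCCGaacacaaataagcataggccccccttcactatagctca
sup-6, chrII:12944968-12945067, minus strand: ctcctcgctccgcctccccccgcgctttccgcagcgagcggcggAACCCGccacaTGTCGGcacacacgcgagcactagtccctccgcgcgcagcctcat
W05B2.8, chrIII:10989579-10989678, plus strand: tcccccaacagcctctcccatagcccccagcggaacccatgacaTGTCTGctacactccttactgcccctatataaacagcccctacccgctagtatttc
M163.13, chrX:14476767-14476866, plus strand: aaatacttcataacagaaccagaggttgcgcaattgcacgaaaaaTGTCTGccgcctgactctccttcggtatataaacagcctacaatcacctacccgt
sls-2.2, chrII:5543498-5543597, plus strand: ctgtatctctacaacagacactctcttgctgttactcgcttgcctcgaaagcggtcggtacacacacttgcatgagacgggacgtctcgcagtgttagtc
sls-2.10, chrIV:9130830-9130929, minus strand: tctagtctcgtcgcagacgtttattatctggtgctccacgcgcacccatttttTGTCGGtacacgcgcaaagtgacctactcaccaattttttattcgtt
In the 15 sls-2 genes with the positioned TGTCNG, it started 48 bases upstream in 13 and 47 bases upstream in 2. It lay 44 and 45 bases upstream of sup-39 and sup-6, and 56 and 55 bases upstream of W05B2.8 and M163.13, which both have TATATAAA closer to the gene. sls-2.2 had no such word at that place and did have a thresholded region. It shares that region with sls-2.3, which has the word 48 bases upstream.

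Across the 119 distinct upstream windows of the members, the word of 6 bases shared by most, on either strand, was AACCCG, in 36.1% of the windows against 1.61% of 19973 protein-coding upstream windows. The second was GTACAC, in 35.3% of the windows against 2.13% of the protein-coding ones. The third was TGTCGG, in 34.5% against 1.68%. These words were picked for their counts in the same windows, which by itself favours a higher share there. Only identical windows were merged, so like windows of related genes count separately. The looser word TGTCNG, which overlaps TGTCGG and was chosen after the windows had been seen, was in 61.3% of the members' windows against 9.69% of the protein-coding ones on either strand. On the gene's strand and starting 65 to 36 bases upstream, it was in 67 of 119 windows (56.3%), against 1.84% of protein-coding, 4.96% of tRNA and 12.4% of small nucleolar RNA (snoRNA) windows. It was found at 15 of 18 sls-2, 10 of 12 sls-1 and 0 of 10 smy genes, and at 18 of the 19 genes of like sequence to Y54G9A.8. Within 50 bases upstream, on either strand, TATAAA was in 12.6% of the members' windows and 12.3% of protein-coding windows. The longer TATATAAA, which contains it, was in 7.56% and 1.4%. Words are matches of letters, not sites of any factor.

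**Figure D1:**
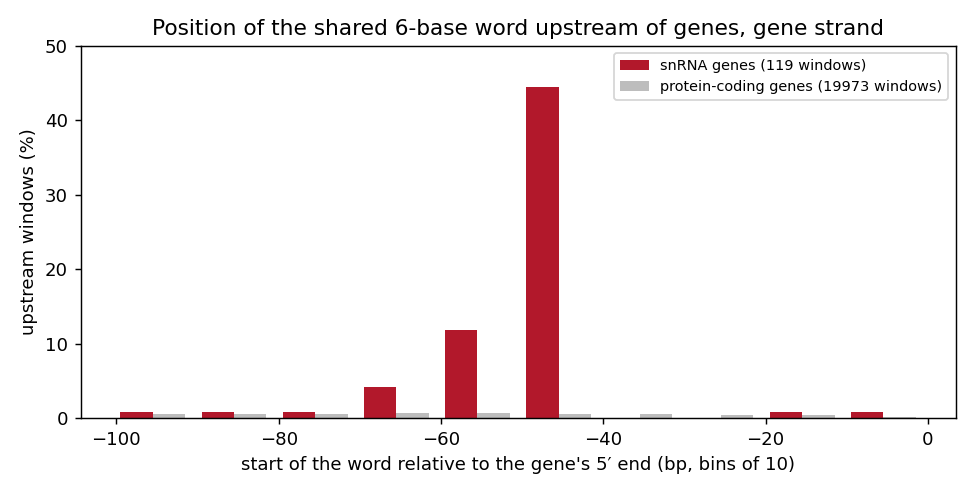
Share of upstream windows (%) in which TGTCNG starts in each bin of 10 bases before the annotated 5′ end, on the gene's strand, for 119 distinct windows of snRNA genes and 19973 windows of protein-coding genes. In snRNA genes 44.5% of windows have it 50 to 41 bases upstream and 11.8% have it 60 to 51 bases upstream, against 0.631% and 0.686% of protein-coding windows.

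Each replicate and the pooled reads had a list of 30000 regions, and an irreproducible discovery rate (IDR) step had left a shorter thresholded list. The authors' signal value, which has no stated scale and serves to rank regions within a list, ran from 28.5 to 430.2 in the pooled list with a median of 38.1. The lowest in the thresholded list was 92.1. The lists hold no read counts, so depth is unknown, and the intervals below cover counting over genes only. With 1 group, none of the shares below was tested, and they are descriptions.

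In the thresholded list, regions lay at 12 of the 129 snRNA genes (9.3%, exact binomial 95% interval 4.9% to 15.7%), against a background of 1.6% of all annotated genes. The spliced-leader genes held 7 of the 12, a share of 7 in 30 (23.3%, exact interval 9.93% to 42.3%). Of the other snRNA genes 5 of 99 had one (5.05%, exact interval 1.66% to 11.4%), so the intervals of both groups overlapped. All 7 were sls-2 genes, 7 of 18 (38.9%, exact interval 17.3% to 64.3%), while 0 of 12 sls-1 genes had one, an exact interval of 0% to 26.5%, or up to 25% at 3 counts of the total. Shares for other small RNA genes were 14.4% of 612 tRNA genes and 14.5% of 346 snoRNA genes. The 12 genes shared 10 regions, 6 at sls genes and 4 at others, which made up 2.54% of the thresholded list. Of these genes 0 lay within 500 bp of a tRNA, snoRNA or 5S ribosomal RNA gene. Over all 129 snRNA genes 14 did, most of them sls-1 genes, so few members could have been so placed. When a summit counted only for the gene nearest to it, 5 of the 12 genes kept a thresholded summit, 3 sls and 2 other, since host genes and neighbouring genes lay nearer to the rest.

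Of all genes 41.8% had a region in the pooled list, a share that covers 9.59% of the 15363 piRNA genes and 65.3% of protein-coding genes. In the pooled list 63 snRNA genes had a region (48.8%), near the all-gene share and below that of protein-coding genes. The median signal of that region was 91.9 over the 15 sls genes that had one, 50 over 48 other snRNA genes (87.5 over 14 and 49.8 over 47 with each region taken once), 59.9 over tRNA genes, 54.4 over snoRNA genes and 42.9 over all genes. Both groups of snRNA genes overlapped, from 30.6 to 219.9 in the sls genes and from 29.6 to 152.2 in the others. In replicate 1 the medians were 63.3 for sls genes and 26.1 for the others, and in replicate 2 they were 38.4 and 28.1. The order was the same in both replicates, with a smaller gap in replicate 2. Taking as many of the highest regions of each replicate as the thresholded list holds, 8 snRNA genes, 5 sls and 3 other, had one in both replicates (6.2%), against a background of 0.755% of all genes. For protein-coding genes that share was 0.976%.

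**Figure D2:**
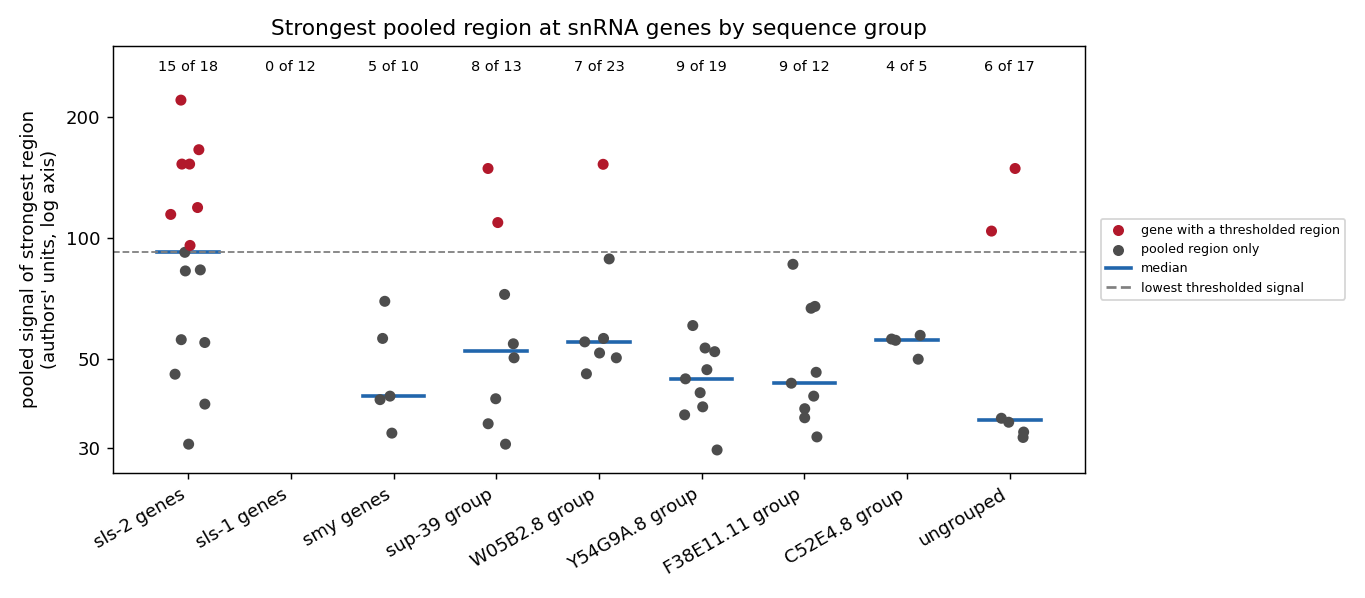
Pooled signal (authors' units, log axis) of the strongest region within 500 bp of each snRNA gene, by sequence group, with counts of genes that have a region at the top. The sls-2 genes reach 219.9 with a median of 91.9, at the dashed line of 92.1 that is the lowest thresholded signal, and 0 of 12 sls-1 genes have a pooled region.

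The highest region of any snRNA gene was at sls-2.4, an intergenic SL2 gene at chrI:4172206-4172315 on the plus strand. Its pooled signal of 219.9 ranked 11, and its signals in replicates 1 and 2 were 126.7 and 104.2 (mean 115.4 ± 15.9, SD, n = 2). The pooled region, 124 bp wide, did not overlap the gene, and its summit lay 44 bp past the 3′ end. That summit was 53 bp from the noncoding RNA gene R12E2.18 and 79 bp from the protein-coding gene R12E2.11. Next was sls-2.1, at chrII:5844865-5844974 and also intergenic, with a pooled signal of 165.5 and rank 32. Its replicates had 69.8 and 101.9 (85.8 ± 22.7, SD, n = 2), and replicate 2 was the higher, unlike at the other sls-2 genes with a thresholded region. sls-2.2 and sls-2.3 point towards each other between chrII:5543598 and chrII:5544273 and share a single region between their 3′ ends. That region was 112 bp wide, with a pooled signal of 152.4 and rank 46. Its replicates had 98.7 and 58.2 (78.4 ± 28.6, SD, n = 2), and it is counted for both genes, since it cannot be assigned to either.

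These 4 genes were the 4 highest sls genes and carry 1 identical leader of 22 bases, the one shown for sls-2.1. Over the whole gene sls-2.1 had 92.7% identity with sls-2.2 and with sls-2.3 and 90.9% with sls-2.4. The other leaders were at lower signal. A leader shared by sls-2.5, sls-2.6 and sls-2.7 was at genes with pooled signals of 55.7, no region and 114.2, and the leader of sls-2.10 and sls-2.11 at genes with no pooled region and 30.6. Signal was therefore highest at the genes with the leader of sls-2.1, and it varied widely within the leader of sls-2.7.

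The other 3 thresholded SL2 genes had signals nearer the bound of the list. sls-2.15, in an intron of W09D6.5 at chrIII:11091010-11091121, had 118.8 and rank 138, with 66.8 and 46.6 in the replicates (56.7 ± 14.3, SD, n = 2). sls-2.7, intergenic at chrI:9057890-9057999, had 114.2 and rank 168, with 72.1 and 42.2 (57.1 ± 21.1, SD, n = 2). The pooled summit lay 49 bp past sls-2.7 and 17 bp from the protein-coding gene spe-46. sls-2.8, intergenic at chrIII:12250465-12250575, had 95.6 and rank 339, with 69.5 and 64.2 (66.9 ± 3.71, SD, n = 2). Its replicate summits were 304 bp apart, so these values may belong to separate places. Its pooled summit lay 75 bp past sls-2.8 and 10 bp from the 5′ end of the protein-coding gene Y75B8A.23. Replicate 1 was the higher at all 3.

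Below the thresholded list came 3 more SL2 genes on chromosome III, of which sls-2.16 was the first snRNA gene outside it. sls-2.16, in an intron of glr-2, had a pooled signal of 91.9 at rank 396, with 47.7 and 45.5 in the replicates. sls-2.14, in an intron of W09D6.5 like sls-2.15 and pointing away from it, had 83.1 at rank 597, with 59.8 and 22.4. sls-2.18, also in glr-2, had 82.6 at rank 608, with 59.1 and 23.7. In sls-2.14 and sls-2.18 replicate 1 ranked the region 201 and 213, whereas replicate 2 ranked it 12557 and 10546. In both genes the replicates thus differed more than in sls-2.16.

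Lower still were sls-2.5 in glr-2 (55.7), sls-2.17 (54.8), sls-2.9 (45.7, near the tRNA gene M01E5.t1), sls-2.12 (38.5) and sls-2.11 in daf-10 (30.6), all pooled signals. sls-2.10 had a region in replicate 2 alone, at a signal of 27.5, and sls-2.6 in hgo-1 and sls-2.13 had none in any list. The 5 SL2 genes on chromosome IV thus ranged from no region to 54.8, and all lay below the 3 on chromosome II.

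**Figure D3:**
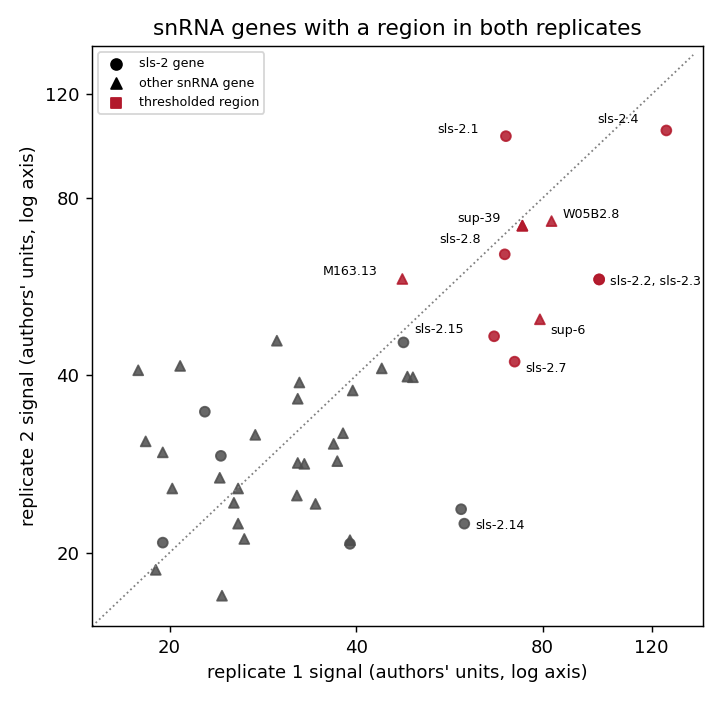
Signal in replicate 1 against replicate 2 (authors' units, log axes) for the 47 snRNA genes with a region in both lists; circles are sls-2 genes, triangles other snRNA genes, red marks thresholded regions and the dotted line marks equal values. Points lie on both sides of the line, 32 of them below it where replicate 1 is higher.

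Replicate 1 gave the higher signal at 10 of the 14 sls-2 genes listed in both replicates (71.4%), at 66.7% of 33 other snRNA genes and at 57% of 14251 genes of any kind. Among genes of any kind with a thresholded summit it did so at 48.3%, with a median ratio of replicate 1 to replicate 2 of 0.993. The sls-2 genes had a median ratio of replicate 1 to replicate 2 of 1.32 (range 0.657 to 2.66). The median was 1.05 over the other snRNA genes and 1.06 over genes of any kind. The range of the ratio over the latter, 0.243 to 4.02, was wider than among the sls-2 genes. The snRNA genes whose rank differed most were F08H9.11 (17.8 and 40.8 in replicates 1 and 2), C28A5.7 (18.3 and 30.9) and F11A5.14 (20.8 and 41.5). All 3 were lower in replicate 1, and none is a spliced-leader gene.

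Summits at SL2 genes lay mostly past the 3′ end of the gene. Of 15 pooled summits 13 did (86.7%), as did 13 of 14 in replicate 1 and 12 of 16 in replicate 2, at pooled distances of 44 to 476 bp beyond the end with a median of 111. The summit between sls-2.2 and sls-2.3 is counted for both genes in each of these lists, so the 15 pooled summits are of 14 distinct regions. The exceptions in the pooled list were sls-2.1, with its summit 39 bp upstream of the 5′ end, and sls-2.9, 99 bp upstream. For the other snRNA genes 23 of 48 pooled summits (47.9%) were past the 3′ end. For tRNA genes the share was 28.1% and for snoRNA genes 30.4%. The region was usually 390 bp wide and a fragment 200 to 800 bp per the labels, so distances under about a region's width are coarse.

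**Figure D4:**
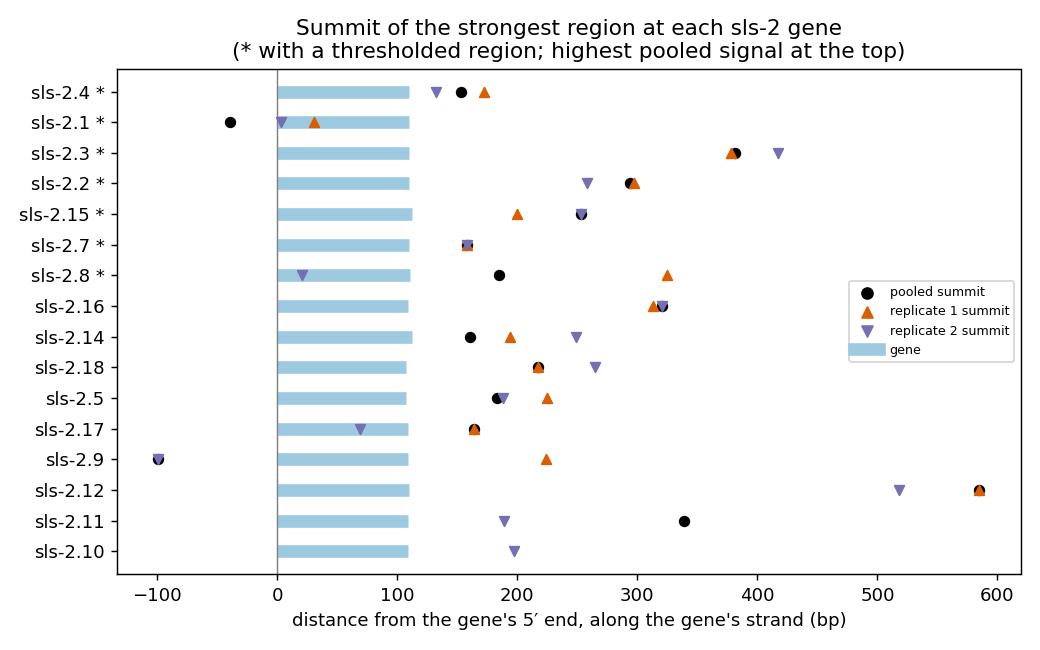
Position of the strongest summit in the pooled, replicate 1 and replicate 2 lists along each sls-2 gene with a region in any list (bp from the 5′ end, bars are genes, asterisks mark thresholded regions). Most summits lie to the right of the bars, and sls-2.1 and sls-2.9 have pooled summits 39 and 99 bp upstream of the gene.

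The sls-1 genes had no region in any list, whereas 16 of 18 sls-2 genes and 55.8% of all annotated genes had one in at least 1 list. All 12 lie in an array of 16205 bp with 14 genes for 5S ribosomal RNA (rrn-4), at chrV:17115903-17132107, and 11 of the 12 are on the minus strand, most often 976 bp apart. Across the array 17.2% of the words of 31 bases occur once in the genome, and in the window of an sls-1 gene and 500 bp to each side the median was 3.84%, against 94.3% for sls-2 genes. The deposited notes name signal tracks of unique reads. Whether the region lists used reads that fit several places is not given in the sources used here, so absent signal and reads that could not be placed cannot be told apart. Inside the array 1 region was listed in each of the pooled, replicate 1 and replicate 2 lists, at signals of 34.8, 16.9 and 24.5, and all 3 were over 500 bp from an sls-1 gene. F35B3.10 and F20D1.21 on chromosome X, not named sls, begin with a leader that differs from that of the sls-1 genes at 1 of 22 bases, and had 83.4% and 79.7% unique words. F35B3.10 had no region, and F20D1.21 had one in replicate 1 alone (21.9).

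Sequence uniqueness bears on all members. Of the 18 snRNA genes with under 50% unique words, 12 of them sls-1 genes, 0 had a pooled region (exact 95% interval of the thresholded share 0% to 18.5%). Of the 60 with at least 90% unique words, a limit chosen after the data had been seen, 11 had a thresholded region (18.3%), against 1.64% of all genes with that uniqueness. They comprised 6 of 13 sls genes (46.2%, exact interval 19.2% to 74.9%) and 5 of 47 others (10.6%, exact interval 3.55% to 23.1%). Both intervals overlap. tRNA and snoRNA genes of that uniqueness had 14.9% and 14.3%.

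**Figure D5:**
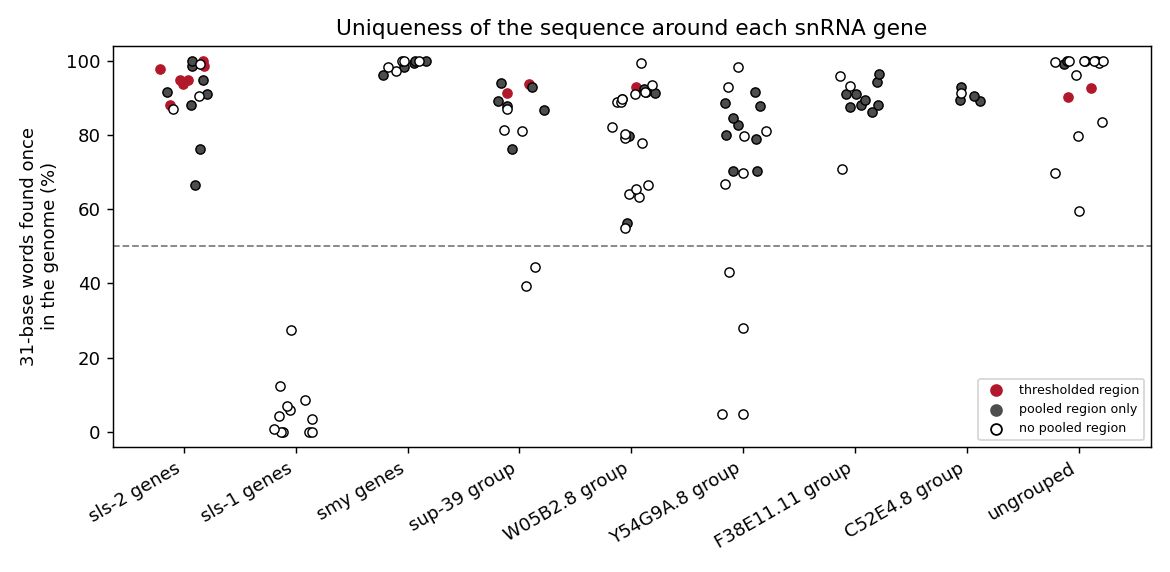
Share of 31-base words (%) in each snRNA gene and 500 bp to each side that occur once in the genome, by sequence group; red points have a thresholded region, grey points a pooled region only and open points no pooled region. All 12 sls-1 genes lie at or below 27.5%, and below the dashed line at 50% there are 18 genes, all open.

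Of the 99 other snRNA genes, 17 were left ungrouped and the smy genes were grouped by name. The rest fall into groups linked through pairs of at least 75% identity, named here by a member since the annotation gives most no family. The sup-39 group of 13 genes, about 165 bp long, includes both named U1 genes, and 2 of its members had a thresholded region. sup-39, in an intron of C15F1.5 at chrII:6968394-6968558 on the minus strand, had a pooled signal of 148.6 and rank 55. Its replicates had 74.2 and 71.8 (73.0 ± 1.70, SD, n = 2), close to each other. The region is the same for mir-1831, annotated inside it. sup-6, in an intron of F58G1.7 at chrII:12944803-12944967 and at 97% identity with sup-39 by the alignment score, had 109 and rank 198, with 79.2 and 49.8 (64.5 ± 20.8, SD, n = 2). Its replicate summits were 275 bp apart, within the gene and past its 3′ end. sup-6 and sls-2.8 were the 2 of the 12 thresholded genes with replicate summits over 200 bp apart. The next of this group, H27M09.6, had 72.2 at rank 1099, below the thresholded list. A pooled region was at 8 of the 13 (61.5%), against 41.8% of all annotated genes.

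The W05B2.8 group holds 23 genes of about 102 bp, of which 14 are identical. W05B2.8 itself, in an intron of dhc-4 at chrIII:10989679-10989780, had the highest signal of the non-spliced-leader genes, 152.2 at rank 49. The replicates of W05B2.8 had 82.7 and 73.1 (77.9 ± 6.79, SD, n = 2). F54D8.7, also of this group, was just outside the thresholded list at 88.5 and rank 454, with 48.4 and 39.8 in the replicates. In all, 7 of 23 had a pooled region (30.4%, against 41.8% of all annotated genes), and 1 was thresholded (4.35%), a share with a wide exact interval of 0.11% to 21.9%. This was the group in which 0 of 23 genes held either word of the Sm site, ATTTTTG or ATTTTGG, on the gene's strand. One of these words was in all 10 smy, all 13 sup-39-group, all 12 sls-1 and 16 of 18 sls-2 genes, and within the first 110 bases one was in 55.8% of snRNA genes and 7.02% of protein-coding genes. The Sm site is where the ring of Sm proteins assembles on most spliceosomal RNAs.

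M163.13, an intergenic gene of 80 bp at chrX:14476867-14476946 with no member of like sequence, was the remaining thresholded one. Its pooled signal was 103.8 at rank 236, with 47.5 and 58.3 in the replicates (52.9 ± 7.66, SD, n = 2). The F38E11.11 group of 12 genes had 9 with a pooled region but 0 thresholded, led by F32B5.9 in an intron of cpz-1 (85.8, rank 524), C53D6.12 (67.4, within 500 bp of the tRNA gene C53D6.t1) and F38E11.10 (66.7). The Y54G9A.8 group had 9 of 19, at most 60.4 at F11A5.14. The C52E4.8 group had 4 of 5, between 49.8 and 57.1, the highest at T11F9.15. The smy genes had 5 of 10, led by smy-1 (69.4, rank 1314), which lies within 500 bp of smy-2, annotated as a snoRNA gene, and their surroundings were 96.1% to 100% unique. Each of these 4 groups reached its highest value below 92.1. In the order given, 75%, 47.4%, 80% and 50% of their genes had a pooled region, against 41.8% of all annotated genes. The Y54G9A.8 and smy shares were thus near that background.

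By chromosome, thresholded regions were at 6 of 16 snRNA genes on II, 3 of 13 on III, 2 of 16 on I, 1 of 3 on X, 0 of 41 on IV and 0 of 40 on V. The shares over all genes of each chromosome were 2.37% on II, 3.34% on III, 2.97% on I, 2.81% on X, 0.528% on IV and 1.27% on V. Chromosome IV holds 19704 of the annotated genes, against 3859 to 7870 on each of the others. The kinds of gene were not matched between chromosomes, so the low share on IV may reflect which genes are annotated there. The 6 genes on II had 4 distinct regions, since sls-2.2 and sls-2.3 share one, as do sup-39 and mir-1831. The exact intervals for IV and V reach 8.6% and 8.81%, and 3 counts of each total are 7.32% and 7.5%. On IV 17 of 41 genes had a pooled region (41.5%, near the 41.8% of all annotated genes), with signals of 30.6 to 69.4 and a median of 46.2. On II the range was 29.6 to 165.5, with a median of 128.8 over 10 genes and 80.5 over their 8 distinct regions. On V 12 of the 40 were the sls-1 genes, and 16 of the other 28 had a pooled region (57.1%), up to 60.4. Of the SL2 genes, 3 of 3 on II, 2 of 4 on I, 2 of 6 on III and 0 of 5 on IV were thresholded. Members within 1000 bp of another formed 15 clusters of 40 genes, 29 of them outside the sls-1 array. Of the 40 genes 5 were thresholded, and 7 of the 89 lone genes were, against 1.6% of all annotated genes. The 5 include both pairs that share a region, and mir-1831 clusters only as an annotation inside sup-39, so the 2 counts are not directly comparable. The 3 SL2 genes in glr-2 (sls-2.5, sls-2.16 and sls-2.18) had 3 separate regions, as did sls-2.14 and sls-2.15 with 2, while sls-2.2 and sls-2.3 shared 1.

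Outside the spliced-leader genes, 5 of 50 genes with the positioned TGTCNG had a thresholded region (10%) and 0 of 49 without it, mir-1831 being counted through the same letters as sup-39. Over all annotated genes the share was 1.6%. Pooled regions were at 30 of the 50 (60%) and at 18 of the 49 (36.7%), against 41.8% of all annotated genes. In sls-2 genes it was 5 of 15 with the word and 2 of 3 without, the latter being sls-2.2 and sls-2.7. Among all members with at least 90% unique words, 9 of 28 with it and 2 of 32 without had a thresholded region. The region of sls-2.2 is shared with sls-2.3, which has the word, so in both splits that region counts on each side. The window and word were chosen after the sequences had been seen, and no test was made. GC content within 100 bp of the summit had a median of 41.5% at the 10 regions of members, 45.3% at the other 383 thresholded regions and 40.8% in the pooled list.

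Of 71 protein genes of snRNA transcription, processing and the spliceosome, 65 were matched by symbol, and 2 had a thresholded summit from 1000 bp upstream to 200 bp downstream of the 5′ end (3.08%), against a background of 0.911% of protein-coding genes. lsm-8, a subunit of the Lsm ring that binds U6 snRNA, had a pooled signal of 124.6 at rank 108, with 69.7 and 56 in the replicates and its summit 483 bp upstream. ints-4, a subunit of the Integrator complex that cuts the 3′ ends of snRNAs, had 119.8 at rank 132, with 53.6 and 63.4. The next were rpc-2, a subunit of RNA polymerase III (83.8), snrp-200, a spliceosomal helicase (75), and mep-1 (65.2). In all 26 of the 65 had a pooled region (40%), against 32.4% of protein-coding genes.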

How the data were processed

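ChIP-seq regions of 2 biological replicates of 1 group were used. The authors deposited a region list per replicate, a pooled list and an IDR-thresholded list. Per the deposited notes the lists derive from replicate alignments with a control alignment on ce11 (WBcel235), and the thresholded list from the 3 others. Caller, aligner and IDR threshold are not given in the sources used here. In the lists the authors' signal value has no stated scale, and the deposited −log10 q-value was not used to rank. Depth is unknown. The labels number the replicates without naming separate cultures, so their spread may be technical.

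Genes came from Ensembl release 115 and symbols from RefSeq, matched by WormBase ID for all 129 members. Summits were assigned within 500 bp. Identity is the global alignment score, matches less penalties for inner gaps, over the longer length (Biopython 1.88). Groups are chains of pairs with at least 75% identity, so 2 genes of a group may be less alike. The sls-1, sls-2 and smy genes were grouped by name. Uniqueness is the share of 31-base words found once in the genome, on either strand. Shares carry exact binomial intervals at 95% (SciPy 1.17.1, Python 3.11.15, pandas 2.3.3, NumPy 2.4.6). Steps were tested on simulated data. Named genes are every thresholded member, the 10 sls and 10 other members of highest signal, the 3 below the lowest called, the 3 with the largest rank difference, and, of the protein list, the thresholded and the 5 highest. Other sls-2 genes, smy genes and the SL1-like genes were named besides. Members and lists were chosen with earlier results of these data known. Alternatives changed the window, assignment, region set, members and replicates. The protein genes not matched by symbol were left out.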

Additional observations from a re-analysis of the deposited data

How the results depend on the processing

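Of 86 values recomputed under 11 alternative settings, 71 stayed within 1.5 times the count, or within the spread of the replicates for a median. The largest shifts came from counting each region only for the gene nearest its summit: 5 snRNA genes, 3 sls and 2 other, had a thresholded summit at 5 loci, 24 had a pooled summit, 3 were among the highest of both replicates, and the sls median was 159. With regions that overlap the gene, 4 sls genes had a thresholded region and 5 snRNA genes were among the highest of both replicates. With only the higher-signal part of the thresholded list, 3 other snRNA genes had one. With summits within 1000 bp the median of the other snRNA genes was 46.1. Among members with at least 90% unique words, a setting chosen after seeing the data, 37 had a pooled summit. With a single replicate's list, as many of its highest regions standing for the thresholded list, 9 to 13 snRNA genes had such a summit, 5 to 9 sls and 4 to 4 other, at 7 to 11 loci, and 64 to 64 had any region. The medians were 38.4 to 63.3 for sls genes and 26.1 to 28.1 for the others, on the lower scale of the replicate lists, and the cause of the other shifts was not tested. The count shared by both replicates has no value without one of them. No paired analysis was possible because the 2 libraries form 1 group. Read depth is unknown, and the part of repeated sequence in the values, such as those of the sls-1 genes, was not tested.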
